A study of Homo sapiens with 16 samples.

Results

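The 7 genes described here encode the enzymes that make serine from glucose and pass its side-chain carbon to folate. They are PHGDH, PSAT1, PSPH, SHMT2, MTHFD2, MTHFD1L and MTHFD1. They were taken by symbol from a table of 16558 genes, all 7 had values in every library, and all 7 were among the 13095 genes tested. Transcripts were measured by RNA sequencing in clones of HepG2, a human liver cancer line, that were prime edited at the codon of PNPLA3 I148M, a variant associated with fatty liver disease. Each of 8 clones gave 1 library after palmitic acid, a saturated fatty acid, at 250 µM for 48 h and 1 untreated control library. The groups were GG with palmitic acid and GG untreated (clones 1, 2 and 6), GC with palmitic acid and GC untreated (clones 2, 3 and 4), and CC with palmitic acid and CC untreated (clones 1 and 3). All clones carry the background of the same cancer line, and a line is 1 clone. The sources used here do not say which genotype the line held before editing or what vehicle the untreated cells received.

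Serine synthesis branches off glycolysis. PHGDH oxidizes 3-phosphoglycerate, PSAT1 moves an amino group from glutamate onto the product, and PSPH removes the phosphate to leave serine. In mitochondria SHMT2 splits serine into glycine and a carbon unit on tetrahydrofolate, MTHFD2 oxidizes that unit and MTHFD1L releases it as formate, which the cytosolic MTHFD1 attaches to folate again for purine, thymidylate and methionine synthesis. ATF4, a transcription factor of the amino acid and unfolded protein responses, is known to drive several of these genes.

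The 16 libraries held 9314342 to 15777669 reads, with 15662 to 16206 genes detected in each. Both lowest values belong to the palmitic acid library of CC clone 3. A unit below is 1 CPM, a read count relative to the size of its library, after the authors' scaling between libraries (TMM). PNPLA3, the edited gene, stood at 2.39 to 14.8 units with palmitic acid and 1.99 to 13.3 units untreated, which does not check the genotypes, since a gene's read count does not show which base was read at the edited codon. The log2 change with palmitic acid had a standard deviation over genes of 0.567 in CC clone 3. In the other 7 clones it was 0.311 to 0.404, so the change of each enzyme is also given without CC clone 3. Genotypes kept equal weight, so in a fit without 1 CC clone the other stood alone for CC. A shift in such a fit therefore also holds the added weight of the CC clone that stayed. All 10 hepatocyte markers had values, including ALB and APOA1. Their sum ran from 15368 to 38831 units with palmitic acid and from 21317 to 51180 units untreated. Most of it was APOB and AFP, with untreated medians of 15770 and 13990 units. ALB had a median of 196 units untreated and only 17.7 units in untreated GC clone 2. Summed markers of stellate cells and fibroblasts (3 of 6 listed genes with values) ran from 32.9 to 93.1 units with palmitic acid and from 37.8 to 117 units untreated, and those of endothelium (3 of 5) from 9.44 to 33.6 and from 10.4 to 31.1 units. Those of bile duct (3 of 4) ran from 286 to 395 units with palmitic acid and from 288 to 419 units untreated, and those of macrophages (3 of 5, nearly all LYZ) from 399 to 1060 and from 392 to 914 units. Among these, COL1A1 and CDH5 were listed at 0 in some libraries and averaged under 1 unit. The part of cell state in the results below was not tested.

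Promoter sequence was available for 5 of the 7 genes (RefSeq, GRCh38.p14), and 4 are shown because the data set them apart. PSAT1 and MTHFD2 differed most between clones, MTHFD1L had the largest change with palmitic acid, and MTHFD1 differed least between clones. Each line gives the 250 bases before a transcript start on the plus strand, at chr9:78296875-78297124, chr2:74198365-74198614, chr6:150866236-150866485 and chr14:64388103-64388352 in this order, with motif matches in capitals.
PSAT1: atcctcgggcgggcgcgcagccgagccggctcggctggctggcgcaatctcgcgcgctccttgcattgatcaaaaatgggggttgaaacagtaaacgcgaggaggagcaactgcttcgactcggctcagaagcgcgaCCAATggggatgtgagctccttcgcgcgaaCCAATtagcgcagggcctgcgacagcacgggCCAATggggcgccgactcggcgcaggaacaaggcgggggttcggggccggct
MTHFD2: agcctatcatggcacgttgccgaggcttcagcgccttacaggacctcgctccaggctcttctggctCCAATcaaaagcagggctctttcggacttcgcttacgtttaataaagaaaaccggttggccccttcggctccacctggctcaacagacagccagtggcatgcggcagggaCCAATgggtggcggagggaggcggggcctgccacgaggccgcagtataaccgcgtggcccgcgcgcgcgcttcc
MTHFD1L: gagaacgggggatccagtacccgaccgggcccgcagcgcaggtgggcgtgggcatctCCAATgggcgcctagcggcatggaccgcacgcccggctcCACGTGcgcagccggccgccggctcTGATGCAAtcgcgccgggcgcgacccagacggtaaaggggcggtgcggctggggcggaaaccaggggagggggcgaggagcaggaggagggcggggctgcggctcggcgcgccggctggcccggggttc
MTHFD1: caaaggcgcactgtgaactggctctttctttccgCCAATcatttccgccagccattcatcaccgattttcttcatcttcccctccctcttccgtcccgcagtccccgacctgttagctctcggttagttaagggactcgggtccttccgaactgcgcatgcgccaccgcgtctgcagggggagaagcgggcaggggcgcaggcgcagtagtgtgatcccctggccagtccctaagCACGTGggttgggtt
PHGDH is the other gene with a window, and PSPH and SHMT2 are named only. In windows of the 250 bases before a start, both strands were searched for TGATGNAA, the composite element read by ATF4 with C/EBP proteins. It was present for 1 of 5 genes, MTHFD1L, as TGATGCAA from 129 to 122 bases before the start, and in 3.14% of 35116 RefSeq windows. The E-box CACGTG was present for MTHFD1L and MTHFD1, 2 of 5 genes, and in 6.34% of windows. The antioxidant response motif TGACNNNGC was present for 0 of 5 genes and in 10.9% of windows. The box CCAAT, a motif added after the sequences were seen, was present for 5 of 5 genes and in 32% of windows, with 3 copies for PSAT1 and 2 for MTHFD2. These motifs do not overlap one another in the lines above. A gene was counted if any of its windows matched (8 windows for the 5 genes), while the percentages count single windows, so the measures are unlike. A match is a run of letters and does not show that a factor binds there, and MTHFD1L has other annotated starts whose windows differ.

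Palmitic acid went with a rise of MTHFD1L and PSPH across genotypes, while the other 5 genes did not pass the test. MTHFD1L was higher by 0.28 ± 0.076 on the log2 scale (SE; 1.21-fold; limma, two-sided, adjusted p = 0.0262) and rose in 7 of 8 clones. PSPH was higher by 0.22 ± 0.069 (SE; 1.17-fold; adjusted p = 0.0445) and rose in 6 of 8 clones. The fit paired the libraries of a clone, weighted the genotypes equally and adjusted over all 13095 genes, of which 18.9% were called, 9.33% higher and 9.52% lower. The 2 calls among 7 are to be read against that background. The median change of the 7 genes was 0.13, against -0.0061 over all genes tested.

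MTHFD1L, the enzyme that releases formate in mitochondria, had 104, 74.9 and 203 units in GG clones 1, 2 and 6, 81.2, 123 and 164 units in GC clones 2, 3 and 4, and 96.9 and 197 units in CC clones 1 and 3 with palmitic acid. Untreated, the same gene had 81.2, 65.9 and 179 units in the GG clones, 87.2, 84.7 and 110.2 units in the GC clones, and 89.0 and 148 units in the CC clones. GG clone 6 and CC clone 3 were the highest with and without palmitic acid, and the treated and untreated ranges overlapped because the clones lay far apart. The log2 change was largest in GC clone 4 (0.57) and GC clone 3 (0.54) and negative in GC clone 2 (-0.10). At least 7 of 8 clones rose for 16.6% of all genes tested. The call was lost when GG clone 1, GC clone 3, GC clone 4 or CC clone 3 was left out. Without CC clone 3 the change was 0.23. Over all alternatives, which here and below include a fit without the clone pairing, the adjusted p ran from 0.00435 to 0.846.

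PSPH, the phosphatase that completes serine synthesis, had 113, 96.7 and 179.8 units in GG clones 1, 2 and 6, 128, 108 and 114 units in GC clones 2, 3 and 4, and 95.5 and 149.6 units in CC clones 1 and 3 with palmitic acid. Untreated PSPH had 96.5, 80.6 and 182 units in the GG clones, 100.3, 91.3 and 89.6 units in the GC clones, and 104 and 104 units in the CC clones. All GC clones rose, by 0.24 to 0.35 on the log2 scale, while the CC clones split, with 0.52 in CC clone 3 and -0.12 in CC clone 1. GG clone 6, the highest clone in both conditions, changed by -0.017. Leaving out any of GG clones 1 and 2, GC clones 2, 3 and 4 or CC clone 3 lost the call, and so did scaling by total counts (0.20; adjusted p = 0.0522). Without CC clone 3 the change was 0.11 with an adjusted p of 0.248, and over all alternatives the adjusted p ran from 0.00156 to 0.81.

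PSAT1, the aminotransferase of the pathway, had 370.3, 303 and 1036 units in GG clones 1, 2 and 6, 351, 472 and 649.6 units in GC clones 2, 3 and 4, and 353 and 821 units in CC clones 1 and 3 with palmitic acid. Untreated PSAT1 had 298, 206 and 1107 units in the GG clones, 347, 401 and 420.2 units in the GC clones, and 404 and 618 units in the CC clones. It was higher in 6 of 8 clones, most in GC clone 4 (0.63) and GG clone 2 (0.56), and lower in GG clone 6 and CC clone 1. The mean change of 0.22 ± 0.093 (SE) did not pass the test (adjusted p = 0.123). Without CC clone 1 it was 0.32 and passed (adjusted p = 0.027), without CC clone 3 it was 0.12 (adjusted p = 0.496), and over all alternatives the adjusted p ran from 0.027 to 0.908.

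MTHFD2, the mitochondrial dehydrogenase of the folate pathway, had 191, 124 and 464 units in GG clones 1, 2 and 6, 152, 259 and 271 units in GC clones 2, 3 and 4, and 148 and 429 units in CC clones 1 and 3 with palmitic acid. Untreated MTHFD2 had 188, 119 and 497 units in the GG clones, 178, 214 and 167 units in the GC clones, and 170.0 and 309 units in the CC clones. Its highest change, 0.69 in GC clone 4, stood beside changes of -0.23 in GC clone 2 and -0.20 in CC clone 1. The mean of 0.13 ± 0.097 (SE) had an adjusted p of 0.382. It was 0.015 without CC clone 3 (adjusted p = 0.946) and 0.24 without CC clone 1 (adjusted p = 0.0881), and over all alternatives the adjusted p ran from 0.0881 to 0.95.

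SHMT2, which feeds serine carbon into folate, had 259, 231 and 437 units in GG clones 1, 2 and 6, 229, 335 and 418 units in GC clones 2, 3 and 4, and 227 and 391 units in CC clones 1 and 3 with palmitic acid. Untreated SHMT2 had 245, 216 and 407 units in the GG clones, 252, 297 and 297 units in the GC clones, and 279 and 344 units in the CC clones. It was higher in 6 of 8 clones, but the falls in CC clone 1 and GC clone 2 left a mean of 0.07 ± 0.073 (SE; adjusted p = 0.526). Without CC clone 3 the sign turned, to -0.0089, in a fit where CC clone 1 (-0.30) alone held the weight of CC.

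PHGDH, the first enzyme of the branch, had 239, 183 and 387 units in GG clones 1, 2 and 6, 200.2, 267 and 325 units in GC clones 2, 3 and 4, and 278 and 313 units in CC clones 1 and 3 with palmitic acid. Untreated PHGDH had 280.2, 204 and 428 units in the GG clones, 216, 282 and 304 units in the GC clones, and 325 and 292 units in the CC clones. All 3 GG clones were lower with palmitic acid, and GC clone 4 and CC clone 3 were the 2 clones that were higher. The mean of -0.09 ± 0.052 (SE) did not pass the test (adjusted p = 0.24). It was -0.15 without CC clone 3 (adjusted p = 0.108; 0.108 to 0.927 over all alternatives).

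MTHFD1, the cytosolic enzyme, had 82.0, 83.9 and 72.4 units in GG clones 1, 2 and 6, 66.8, 79.9 and 96.3 units in GC clones 2, 3 and 4, and 91.5 and 71.6 units in CC clones 1 and 3 with palmitic acid. Untreated MTHFD1 had 84.8, 76.4 and 88.2 units in the GG clones, 68.3, 93.1 and 100.7 units in the GC clones, and 90.8 and 82.8 units in the CC clones. Its values lay in a narrow band, and it was lower with palmitic acid in 6 of 8 clones. The mean of -0.09 ± 0.058 (SE) had an adjusted p of 0.298. Leaving out CC clone 3 gave -0.053 (adjusted p = 0.675; 0.171 to 0.873 over all alternatives).

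**Figure D1:**
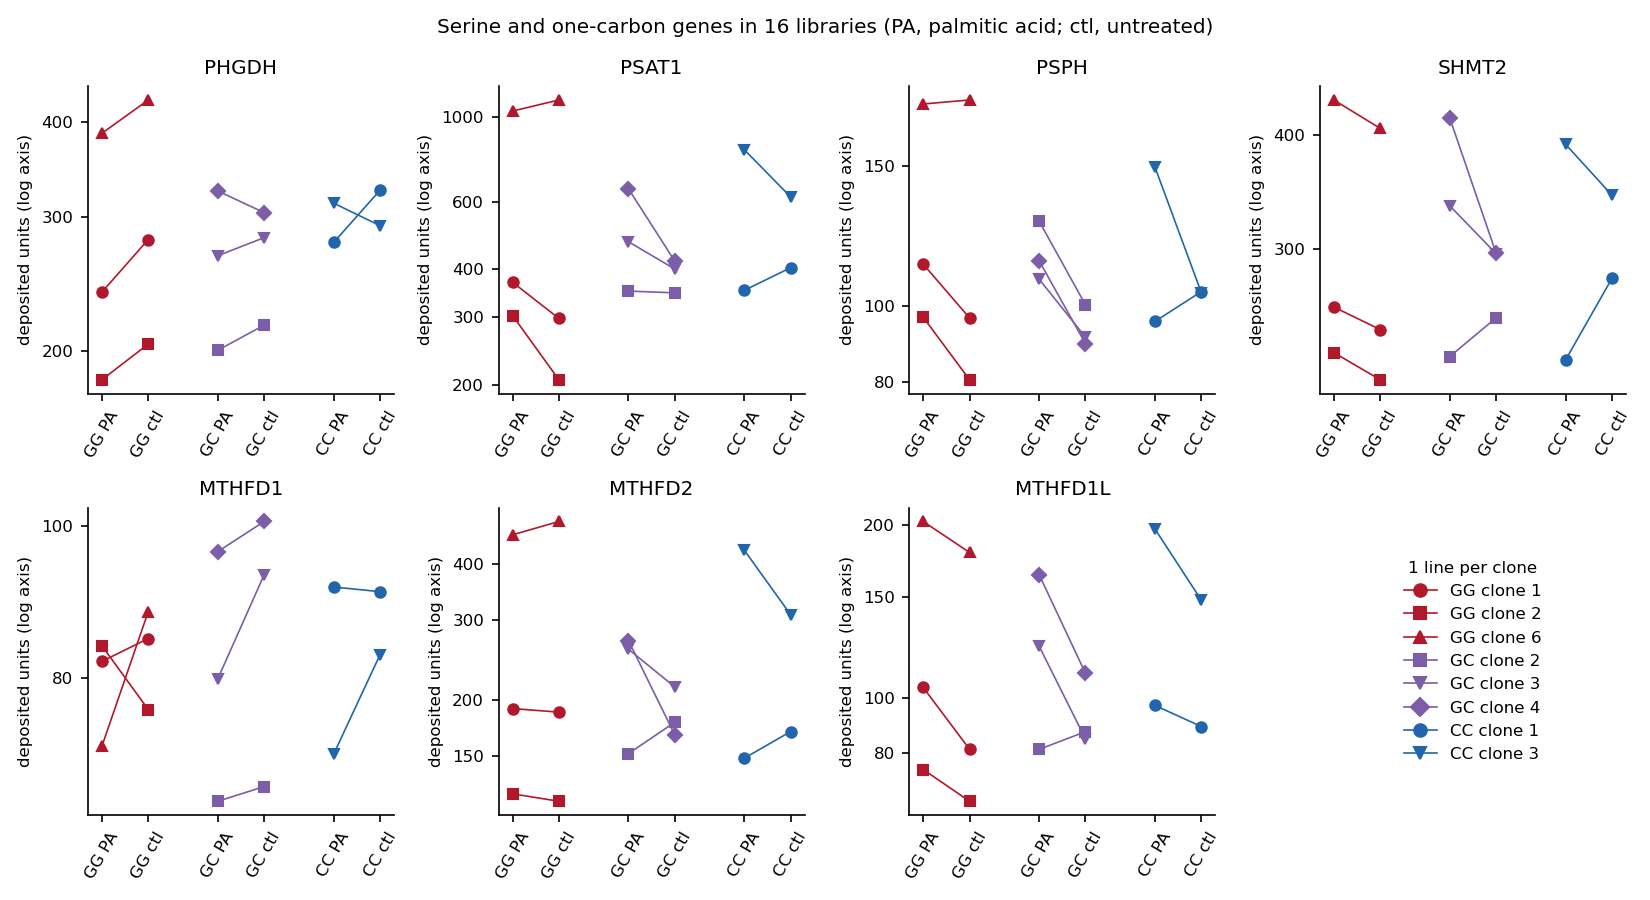
Level of each gene in 16 libraries, in CPM with the authors' scaling on a log axis, with 1 line per clone joining its palmitic acid library (left) to its untreated library (right) within each genotype. GG clone 6 is the top line for every gene except MTHFD1, and its line lies above the other GG lines at both ends for those genes.

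The plot of levels in all libraries shows GG clone 6 on top with and without palmitic acid, and the plot of changes per clone shows how unequal the clones were in their response. GC clone 4 had the highest change in 4 of 7 genes and CC clone 3 in 2 of 7, against 14% and 21.3% of all genes tested. The CC clones went opposite ways in 5 of 7 genes, with CC clone 3 higher and CC clone 1 lower with palmitic acid, as did 21.5% of all genes.

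**Figure D2:**
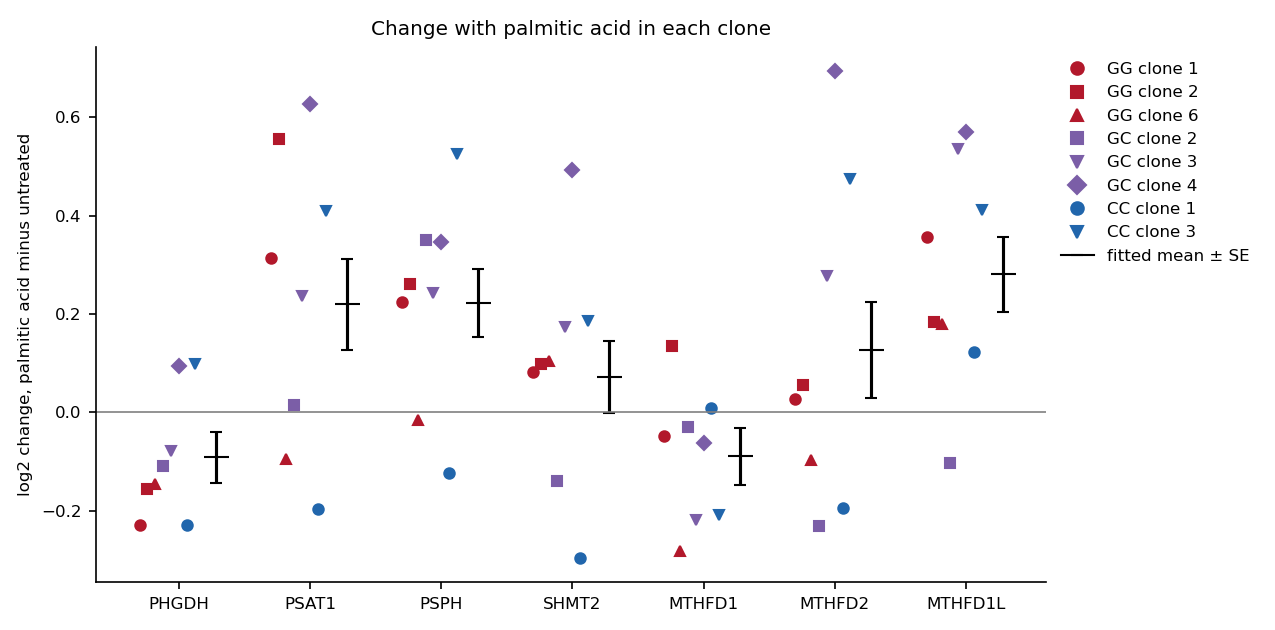
Change with palmitic acid in each clone, as log2 palmitic acid minus log2 untreated, with points for the 8 clones and black bars for the fitted mean with its standard error over genotypes. The bars of MTHFD1L (0.28) and PSPH (0.22) are the 2 that passed the test, and for each gene some clones lie on either side of 0.

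Within single genotypes 0 of 7 genes passed limma's test. Of all genes, 0.84% were called in GG, 1.54% in GC and 2.3% in CC. At an unadjusted p under 0.05 the counts were 0 in GG, 2 in GC (MTHFD1L and PSPH) and 0 in CC. Of all 13095 genes tested, 2053 in GG, 2309 in GC and 2681 in CC were under that limit. After adjustment edgeR and DESeq2 also called 0 of 7 in each genotype. In GG the changes ran from -0.18 for PHGDH to 0.26 for PSAT1, in GC from -0.10 for MTHFD1 to 0.33 for MTHFD1L, and in CC from -0.10 for MTHFD1 to 0.27 for MTHFD1L, with standard errors of 0.083 to 0.19. The response did not differ detectably among genotypes for any of the 7 (limma's moderated F-test, smallest adjusted p = 0.998, 0.00764% of all genes called). An unadjusted p under 0.05 was found for 0 of the 7 and for 474 of all 13095 genes. MTHFD1L changed by 0.24 in the GG clones, 0.33 in the GC clones and 0.27 in the CC clones, with no call in any.

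The question whether the PNPLA3 genotype goes with other levels of these enzymes was put in 6 comparisons, and 0 of 7 genes passed in any of them by limma, edgeR or DESeq2. In limma 0 of 7 had an unadjusted p under 0.05, against 156 to 1096 of all 13095 genes in a comparison. Of all genes tested, 0.00764% were called for GG against CC and for GC against CC with palmitic acid, and 0% in the other 4 comparisons. With palmitic acid, PSAT1 averaged 569.6 ± 405 units in GG, 491 ± 150.1 units in GC (SD, n = 3 each) and 587 ± 331 units in CC (SD, n = 2). Untreated, PSAT1 averaged 537 ± 496 units in GG, 389 ± 37.7 units in GC (SD, n = 3 each) and 511 ± 151 units in CC (SD, n = 2). GG minus CC differences ran from -0.24 for MTHFD1L to 0.07 for PSPH with palmitic acid, and from -0.29 for PSAT1 to 0.11 for PSPH untreated. GC minus CC differences ran from -0.23 for MTHFD1L to 0.09 for SHMT2 with palmitic acid, and from -0.36 for PSAT1 to -0.0092 for MTHFD1 untreated. GG minus GC differences ran from -0.10 for SHMT2 to 0.11 for PSPH with palmitic acid, and from -0.05 for MTHFD1 to 0.27 for MTHFD2 untreated. Standard errors of these log2 differences were 0.17 to 0.65, so differences of such size could not be detected with 2 or 3 clones a genotype. PSPH was the 1 gene whose clones did not overlap between genotypes, with untreated GC below CC, and 23.2% of all genes tested did not overlap in that comparison. In the others 0 of 7 did so, against 11.6% (GG and CC), 25.5% (GC and CC) and 11.9% (GG and GC) of all genes with palmitic acid, and 9.35% (GG and CC) and 12.3% (GG and GC) untreated.

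Most of the spread of these genes lay between clones of the same genotype. Untreated PSAT1 was 5.37 times as high in GG clone 6 as in GG clone 2, both of the same genotype, and MTHFD2 4.17 times. The corresponding ratio of highest to lowest clone was 2.72 for MTHFD1L, 2.26 for PSPH, 2.10 for PHGDH, 1.89 for SHMT2 and 1.47 for MTHFD1. With palmitic acid the ratio was 3.42 for PSAT1, 3.75 for MTHFD2, 2.71 for MTHFD1L and 1.44 for MTHFD1. The standard deviation of the untreated log2 level over clones was 0.721 for PSAT1 and 0.632 for MTHFD2, higher than for 92.9% and 89.9% of tested genes, against 0.174 for MTHFD1, higher than for 16.2%. The median gene had 0.284.

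A test of differences among clones of a genotype, added after the values were seen, called 7 of 7 genes, and it also called 68.8% of all genes tested. It took the treated and untreated libraries of a clone as its replicates, after removing the response of each genotype. In limma's moderated F-test F was 36.4 for PSAT1 (adjusted p = 3.41e-05), 32.0 for MTHFD2 (adjusted p = 5e-05), 30.8 for MTHFD1L (adjusted p = 5.58e-05) and 29.5 for PHGDH (adjusted p = 6.35e-05). It was 15.0 for SHMT2 (adjusted p = 0.000616), 14.2 for PSPH (adjusted p = 0.000745) and 5.63 for MTHFD1 (adjusted p = 0.0145). For PSPH the call rested on GG clone 6, without which F was 2.77, and for MTHFD1 on GC clones 2 and 4, without which it was 1.75 and 3.18.

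**Figure D3:**
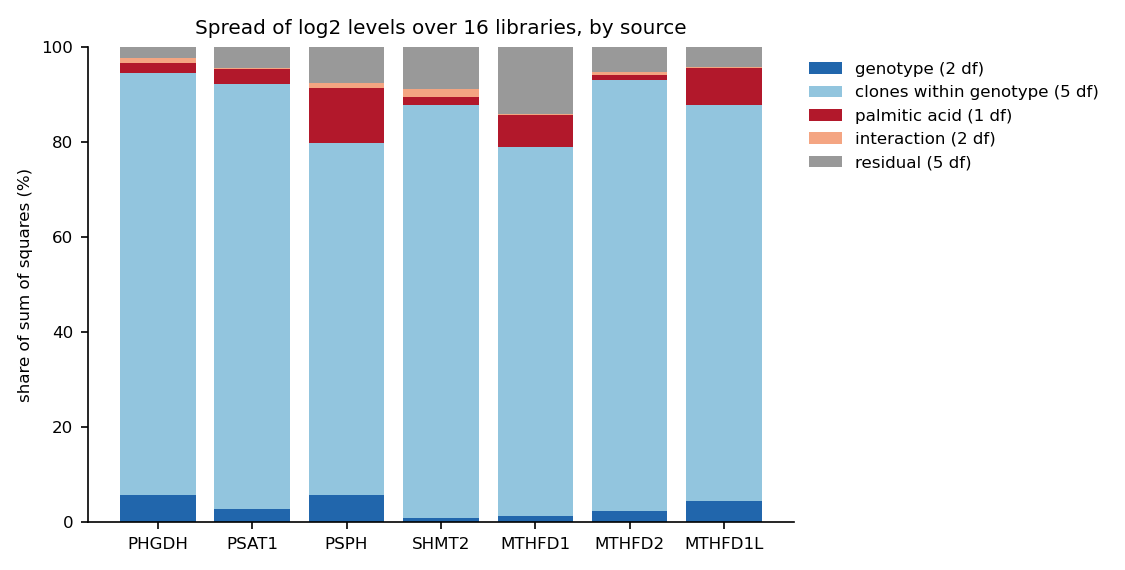
Share of the sum of squares of the log2 level over 16 libraries by source, stacked per gene in percent. Differences among clones within a genotype take 74.1% (PSPH) to 90.6% (MTHFD2), genotype 0.957% to 5.87% and palmitic acid 0.982% (MTHFD2) to 11.6% (PSPH).

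In the plot of shares, clones within a genotype, with 5 of the 15 degrees of freedom, took the largest part for all 7 genes. Palmitic acid, with 1, took 11.6% for PSPH, 7.73% for MTHFD1L and 6.7% for MTHFD1, and 3.18% or less for the other 4.

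GG clone 6 was the highest clone for 6 of 7 genes with palmitic acid and for 6 of 7 untreated, where 13.2% and 22.9% of all genes tested had their highest value in that clone. The 6 genes were the same in both conditions, and 9.5% of all genes had both maxima there. It stood at 2.46 times the median clone for PSAT1 with palmitic acid and 2.75 times untreated. The untreated ratio to the median clone was 2.72 for MTHFD2, 2.03 for MTHFD1L, 1.85 for PSPH, 1.49 for PHGDH and 1.42 for SHMT2. CC clone 3 was the second highest for 4 of 7 genes in each condition (13.5% of all genes with palmitic acid and 16.4% untreated), at 1.69 times the median clone for MTHFD2, 1.68 for MTHFD1L and 1.54 for PSAT1 untreated. GG clone 2 was the lowest untreated clone for 6 of 7 genes, against 18.8% of all genes, with PSAT1 at 0.512 times the median clone. MTHFD1 was the exception in both respects, highest in GC clone 4 and lowest in GC clone 2.

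**Figure D4:**
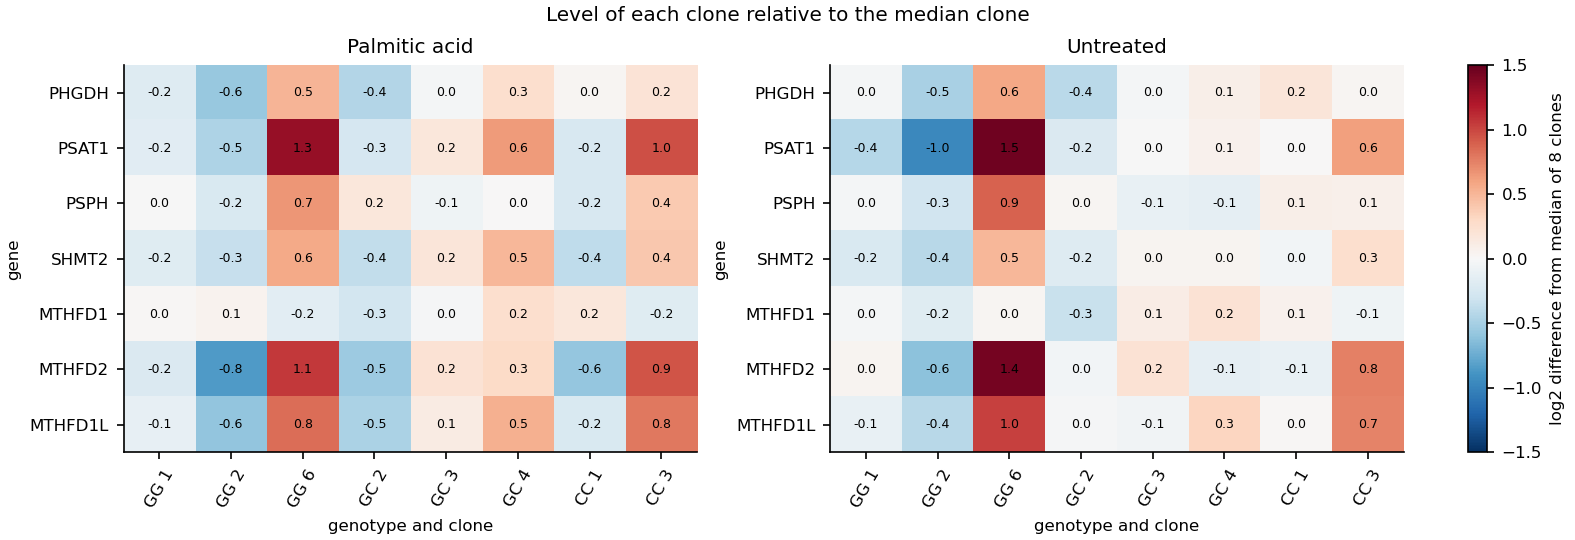
Level of each gene in each clone as log2 difference from the median of 8 clones, with palmitic acid on the left and untreated on the right. The column of GG clone 6 is high in both panels, CC clone 3 is high for PSAT1, MTHFD2 and MTHFD1L, GG clone 2 is low, and the row of MTHFD1 is nearly flat.

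In the map of clone levels MTHFD1 stands apart from the other 6 genes with all clones in view. Among untreated clones, the 15 pairs of genes without MTHFD1 had Pearson correlations of 0.776 to 0.983 over 8 clones, and 15 of 15 passed an exact permutation test adjusted over 21 pairs (largest adjusted p = 0.0351). By Spearman's rho 4 of these 15 passed, and 0 of the 6 pairs with MTHFD1 passed by either measure. No share of passing pairs among other genes is at hand to set beside these counts. Untreated, GG clone 6 was the highest clone for 22.9% and GG clone 2 the lowest for 18.8% of all genes tested, so other genes share this pattern. PSAT1 and SHMT2 correlated at r = 0.983 (exact permutation p = 7.44e-05, adjusted 0.000781) and rho = 0.976 (p = 0.000397, adjusted 0.00417), and at r = 0.963 without GG clones 6 and 2. PSAT1 and MTHFD1L correlated at r = 0.96 (exact permutation p = 7.44e-05, adjusted 0.000781) and rho = 0.976, and at r = 0.914 without the same clones. SHMT2 and MTHFD1L kept r = 0.852 and PSAT1 and MTHFD2 r = 0.756 without them, while pairs with PHGDH or PSPH among these 6 genes fell to 0.46 or less. PHGDH and PSPH had r = 0.791 (exact permutation p = 0.0168, adjusted 0.0271; rho = 0.667, adjusted 0.168) but -0.0438 without them, and the median over the 15 pairs was 0.884 with all clones and 0.352 without the 2 farthest. PHGDH and MTHFD1 went the other way, with r = 0.658 over all clones (exact permutation p = 0.0734, adjusted 0.0964; rho = 0.643, adjusted 0.168) and 0.854 without GG clones 6 and 2. The changes with palmitic acid passed for 1 of 21 pairs by Pearson and 2 by Spearman. SHMT2 and MTHFD2 changed together at r = 0.887 (exact permutation p = 0.00156, adjusted 0.0328) and rho = 0.905 (p = 0.00456, adjusted 0.0479), and at r = 0.823 without CC clone 1 and GC clone 4. MTHFD2 and MTHFD1L passed by rho only, at 0.952 (exact permutation p = 0.00114, adjusted 0.024). Their r was 0.871 (exact permutation p = 0.00499, adjusted 0.0523), and 0.91 without GC clone 4 and CC clone 3.

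Each gene was compared by correlation over the 16 libraries, with no test, within a set of 10321 genes that includes it. The other genes most like MTHFD2 were SLC7A11, the cystine transporter (r = 0.984), and SLC4A5 (r = 0.98). SHMT2 was most like TNKS1BP1 (r = 0.962) and ASNS, the asparagine synthetase (r = 0.957), and PSAT1 was most like WARS, a tryptophanyl-tRNA synthetase (r = 0.966), and WDR46 (r = 0.962). MTHFD1L was most like PAK1IP1 and MARS, a methionyl-tRNA synthetase (r = 0.973 each), PSPH like DNAJA2 (0.951) and MTRF1L (0.939), PHGDH like NUFIP1 (0.923) and ADAM17 (0.922), and MTHFD1 like HHAT (0.921) and HIC2 (0.899). The points share 8 clones, and most of the spread lay between clones. ASNS had 447 units in GG clone 6, 423 units in CC clone 3 and 57.8 units in CC clone 1 with palmitic acid, against 438, 331 and 77.9 units in the same clones untreated. SLC7A11 had 985 units in GG clone 6, 994 units in CC clone 3 and 160.5 units in CC clone 1 with palmitic acid, against 924, 668 and 222 units in the same clones untreated. Both had the pattern of MTHFD2, high in GG clone 6 and CC clone 3.

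The amino acid genes known to be driven by ATF4, a list that holds none of the 7 genes, were also high in GG clone 6 and CC clone 3. The list does hold ASNS, SLC7A11 and WARS, named above as most like SHMT2, MTHFD2 and PSAT1, so their pattern is no separate result. Its 14 tested genes had a median log2 difference from the median clone of 0.93 in GG clone 6, 0.66 in CC clone 3 and -0.45 in GG clone 2 untreated, against 0.88, 0.26 and -0.42 for the 7 genes. Of the 14, 8 were highest in GG clone 6 and 4 in CC clone 3, where 22.9% and 8.42% of all genes had their highest value. With palmitic acid 2 of 14 rose and 1 fell, against 9.33% higher and 9.52% lower over all genes tested. TRIB3, a pseudokinase induced by ATF4, was higher by 0.67 ± 0.14 (SE; limma, adjusted p = 0.00887) in 8 of 8 clones, as were 6.77% of all genes. NARS, an asparaginyl-tRNA synthetase, was higher by 0.25 (adjusted p = 0.0363), and CEBPB, a partner of ATF4, changed by -0.46 ± 0.10 (adjusted p = 0.0121). The change of NARS was 0.16 without CC clone 3 and not called, while TRIB3 and CEBPB kept their calls, and NARS also lost its call without GG clone 1, GG clone 2, GC clone 3 or GC clone 4. The list's median change was 0.19, against -0.0061 over all genes.

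The mRNA of ATF4 itself lay in a narrower range over clones than that of PSAT1. ATF4 had 362 (CC clone 1) to 683.5 units (GG clone 6) with palmitic acid, and 442 (GC clone 2) to 589 units (GG clone 6) untreated. In CC clone 3 it had 669.4 units with palmitic acid and 483 units untreated, and in GG clone 2 it had 395 and 579 units. Its change over genotypes was -0.01 (adjusted p = 0.941), with 4 clones higher and 4 lower. Of 7 tested regulators, 1 passed, against 18.9% of all genes tested. It was NFE2L2, which drives antioxidant genes, with a log2 change of -0.16 (adjusted p = 0.0405). That call held without CC clone 3 and was lost without any other single clone. MYC changed by -0.03, EIF2AK3 by -0.08, EIF2AK4 by -0.02, ATF5 by 0.07 and KEAP1 by 0.08, none of which passed (adjusted p = 0.314 to 0.842).

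Cell cycle genes were lowest in GG clone 6, as the plot of list medians shows, with -1.03 in GG clone 6 and 0.70 in CC clone 1 untreated. MKI67, a marker of dividing cells, had 29.5 units in GG clone 6 and 505 units in CC clone 1 with palmitic acid, against 53.0 and 475 units in the same clones untreated. With palmitic acid 4 of 10 cell cycle genes fell and 0 rose, against 9.52% lower and 9.33% higher over all genes tested, with a median of -0.29. AURKB changed by -0.46 (adjusted p = 0.00835), TOP2A by -0.37 (adjusted p = 0.0194), MKI67 by -0.40 (adjusted p = 0.0385) and MCM2 by -0.30 (adjusted p = 0.0432). AURKB kept its call without CC clone 3 and the other 3 lost theirs, as they did without GG clone 1, GC clone 3 or GC clone 4. MKI67 and MCM2 also lost theirs without GG clone 6, and MCM2 without GC clone 2. The part of cell division in the clone differences of the enzymes was not tested. In bulk samples fewer cells of a kind and less RNA per cell cannot be told apart.

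Among the neighbouring steps of the network, 1 of 13 other folate enzymes and carriers rose and 2 fell, against 9.33% higher and 9.52% lower over all genes tested. SLC25A32, the mitochondrial folate carrier, was higher by 0.37 ± 0.083 (SE; adjusted p = 0.0107) in 8 of 8 clones. ALDH1L1, which burns formyl-folate in the cytosol, changed by -0.71 ± 0.14 (SE; adjusted p = 0.00503) and was lower in 8 of 8 clones, as were 6.79% of all genes. FTCD, which draws carbon from histidine, changed by -0.41 (adjusted p = 0.0136). TYMS, the thymidylate synthase, had -0.21 and did not pass (adjusted p = 0.0948).

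Of 15 genes of the methionine cycle and transsulfuration 4 fell and 0 rose, beside the 9.52% lower over all genes. BHMT, which methylates homocysteine with betaine, had the largest of these changes, -1.24 ± 0.17 (SE; adjusted p = 0.00112), but its levels were low, at 1.08 to 22.5 units with palmitic acid and 5.40 to 59.1 units untreated. AHCY changed by -0.25 (adjusted p = 0.00573), CBS, which uses serine to make cystathionine, by -0.21 (adjusted p = 0.0265) and MAT1A, the hepatocyte methionine adenosyltransferase, by -0.36 (adjusted p = 0.029). MAT1A had -0.17 without CC clone 3 (adjusted p = 0.105) and -0.55 without CC clone 1. Of 13 genes that use or carry serine and glycine 1 fell, GLDC, the glycine decarboxylase (-0.33 ± 0.058, SE; adjusted p = 0.00363; lower in 8 of 8 clones). SLC38A2, an amino acid carrier, had 0.37 (adjusted p = 0.0616), with 0.13 without CC clone 3 (adjusted p = 0.294) and 0.61 without CC clone 1 (adjusted p = 0.00022). SRR had -0.47 (adjusted p = 0.0807) and SLC25A38 -0.15 (adjusted p = 0.0876). Of 10 purine synthesis genes 1 fell, IMPDH2 (-0.24; adjusted p = 0.0203), while GART had 0.17 (adjusted p = 0.0888), ATIC 0.10 (adjusted p = 0.182) and ADSS 0.10 (adjusted p = 0.282). The lists' median changes were -0.09 for the other folate genes, -0.10 for the methionine cycle, -0.03 for serine and glycine use and 0.02 for purine synthesis. Without CC clone 3 the calls of SLC25A32, FTCD (-0.25), CBS, MAT1A and IMPDH2 were lost, and those of ALDH1L1, BHMT, AHCY and GLDC were kept. CBS also lost its call without GG clone 2, GC clone 2 or GC clone 3, IMPDH2 without GG clone 1, GC clone 2 or GC clone 3, and MAT1A without GG clone 1, GG clone 6, GC clone 2 or GC clone 3.

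Hepatocyte markers fell beside these genes, 6 of 10 with 0 rising, beside the 9.52% lower over all genes, and a median of -0.36. They included FGB, a fibrinogen chain (-1.55), ALB, albumin (-0.40; adjusted p = 0.0107), APOA1 (-0.45; adjusted p = 0.0104) and TF, transferrin (-0.49; adjusted p = 0.0111). ALB lost its call without CC clone 3 (adjusted p = 0.053), and APOA1 (-0.27) and TF (-0.31) kept theirs. In CC clone 3 their median change was -1.29, against 0.41 for the 7 enzymes in that clone. Their part in the changes of folate and methionine genes was not tested.

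Per kilobase of merged exons, PSAT1 was the most abundant of the 7, with a mean of 233 units per kb (94.2 to 506 over libraries). SHMT2 followed with 62.8 (44.6 to 90.4), MTHFD2 with 49.8 (24.5 to 102), PSPH with 41.5 (29.2 to 65.8), PHGDH with 30.7 (19.9 to 46.4), MTHFD1L with 23.5 (13.1 to 40.4) and MTHFD1 with 8.86 (7.13 to 10.7) units per kb. Each neighbouring pair from SHMT2 down to MTHFD1L overlapped, so their order is not firm, while the range of PSAT1 lay above those of the others except MTHFD2, which it overlapped, and the range of MTHFD1 lay below all others. Within every single library PSAT1 had more units than MTHFD2, over fewer exon bases (2188 against 4870), so it was higher per kb in each. The lengths hold exons of all annotated transcripts, which these cells may not all use. The genes were read deeply, with 660 reads (MTHFD1) to 15296 reads (PSAT1) per library. On GRCh38, PHGDH lies at chr1:119648411-119744226, PSAT1 at chr9:78297143-78330093, PSPH at chr7:56011051-56051604, SHMT2 at chr12:57229327-57234935, MTHFD2 at chr2:74198562-74217565, MTHFD1L at chr6:150865549-151101887 and MTHFD1 at chr14:64388031-64463457, PSPH on the minus strand and the others on the plus strand. Pseudogene copies of PSAT1, MTHFD2, PSPH and MTHFD1 are annotated, and how reads shared with them were divided is not given in the sources used here.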

How the data were processed

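Per the submitters' processing notes, reads were handled with Trimmomatic 0.38, RSEM 1.3.0, Bowtie2 and edgeR on build hg38; per the labels' protocols, ribosomal RNA was depleted and libraries were stranded. The deposited values are a normalized signal that is a whole multiple of 1 read per library (100% whole), so read counts were recovered; TMM-scaled CPM recomputed from them equalled the deposited values. Genes averaging 1 unit or more over all libraries (13095) were analysed on log2(value + 0.5) with limma 3.58.1 in R 4.3.3, Benjamini-Hochberg at 0.05. Responses to palmitic acid took the clone as block, and genotypes were compared on 6 group means. Libraries with the same genotype and number are 1 clone. Their deviations from group means correlated at 0.523 to 0.857, the highest partner in 8 of 8 clones. The 2 CC clones share 1 value (0.744), since deviations from a mean of 2 mirror each other. For responses to palmitic acid the p-values measure the spread of the change between clones, on 5 residual degrees of freedom. Genotype contrasts had 10, because both libraries of a clone entered as separate values. The test among clones measured against the spread within clones. Alternatives included edgeR 4.0.16 and DESeq2 1.42.0 on recovered counts. Each library's own label gives 48 to 55 h in sample order; the protocol's 48 h was taken. Named genes were the 7 members, up to 4 genes per list with the smallest p, all regulators and the 2 genes most like each member. Members and lists were chosen with earlier results of these data known, and some listed genes are not reported here and are left out of the list counts. Gene positions came from GENCODE.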

Additional observations from a re-analysis of the deposited data

Results flagged for a closer look

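The untreated PSPH level of GG clone 6, 7.51 on the log2 scale, stood far above the other 7 clones: its gap to the next clone was 0.685 of the whole range of the 8 clones, above the critical value of 0.526. It was the 1 result of 21 measures tested that met this rule, and chance gives about 1 in 20. PSPH was also highest in that clone with palmitic acid.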

How the results depend on the processing

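Of the 7 enzymes, 2 passed over genotypes; scaling by total counts left 1, and a fit without the replicate block left 0 of 7 and 6 of 13095 genes, against 2469 with the clone pairing. With 1 clone left out the count was 0 to 3, and that over all genes 1254 (without CC clone 3) to 3753 (without CC clone 1). In GC and in CC it was 0 to 1, and for differences among clones 6 to 7. Genotype contrasts kept 0 of 7 with the clone as a random replicate block. Other pseudocounts, filters, edgeR, DESeq2 and 1 common treatment term kept the count of enzymes at 2. Spearman's rho called 4 pairs against 15 by Pearson for untreated levels, and 2 against 1 for changes. Signs turned in no other setting than left-out clones, and for genes that had not passed: SHMT2 ran from -0.0089 to 0.15, ATF4 from -0.17 to 0.14, MYC from -0.087 to 0.014, EIF2AK4 from -0.042 to 0.010 and ATF5 from -0.030 to 0.13. The cause was not tested. With 2 or 3 clones a genotype, the number of clones limits the precision.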
